A study of Mus musculus with 9 samples.

Results

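The genes described here are 43 autosomal genes whose transcripts were all but absent from CD47 KO clone E5 while being detected in WT cells and in CD47 KO clone E3. They were chosen from the deposited read counts by 1 rule: at most 3 counts in each of the 3 E5 libraries and at least 1 CPM (counts per 1000000 counts of the library) in each of the 3 WT and 3 E3 libraries. Of 50813 genes listed, 10729 autosomal genes reached 1 CPM in every WT and E3 library, called expressed genes below, and the 43 were 0.401% of them. Without replicate 3 of E3, a library that stood apart, the rule gave 47. Genes with names that start with Col, Hox, Pcdh or Wnt were left out, which removed 0 autosomal genes. Since the counts themselves chose these genes, their low level in E5 and higher level in WT and E3 are given as a description with no test.

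All libraries were from Lewis lung carcinoma (LLC) cells, a mouse lung tumour line that, per the methods, also carries luciferase, grown in culture. WT cells, said by the study design to be clonal, and 2 lines in which CRISPR-Cas9 was used to disrupt Cd47, clones E3 and E5, gave 3 libraries each. Each KO line is 1 clone, so that genotype and clone cannot be told apart within a line, and p-values measure the spread between cultures of a line. Polyadenylated RNA was sequenced from both ends, with 44257404 to 55095219 counts per library, so that 3 counts stand for 0.0545 to 0.0678 CPM.

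Transcription of a gene can be kept up or shut off as a stable state that daughter cells inherit. A line grown from a single cell can then carry the state of its founder, which was not tested here. Promoters rich in CG pairs tend to be active in many tissues, and those poor in CG pairs more often in particular tissues. The genes here are of many kinds, from adhesion molecules and secreted factors to Golgi enzymes and kinases, and DNA and chromatin were not measured.

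Lgi2 and Ptn were chosen as among the most abundant of these genes in WT cells. The stretches upstream of their start sites are shown, with CG pairs in capitals. They come from the GRCm39 genome, each reads 5′ to 3′ on the minus strand, on which the gene lies, and each is the longest stretch free of annotated exons within the 300 bases before the start site of the canonical transcript in GENCODE M39. The Lgi2 stretch is chr5:52723805-52724104, all 300 bases, with 7 CG pairs. The Ptn stretch is chr6:36787693-36787893, 201 bases with 2 CG pairs. The window before Chst2 lay wholly in annotated exons and is not shown.
Lgi2: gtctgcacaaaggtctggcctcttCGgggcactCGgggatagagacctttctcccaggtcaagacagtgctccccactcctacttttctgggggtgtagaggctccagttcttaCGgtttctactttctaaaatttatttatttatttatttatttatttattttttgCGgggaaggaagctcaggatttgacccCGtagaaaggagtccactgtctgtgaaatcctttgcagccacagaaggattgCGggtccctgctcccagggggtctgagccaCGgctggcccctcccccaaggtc
Ptn: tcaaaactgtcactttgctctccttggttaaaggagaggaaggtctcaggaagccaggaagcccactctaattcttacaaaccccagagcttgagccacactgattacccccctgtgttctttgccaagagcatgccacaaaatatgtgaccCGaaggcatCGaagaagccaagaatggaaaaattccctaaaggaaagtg

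Cd47, the edited gene, held 178 to 188 CPM in the WT libraries, 37.2 to 51.0 CPM in E3 and 15.2 to 18.1 CPM in E5, with no overlap. It was lower in both clones, by log2 fold changes of -2.03 ± 0.13 and -3.39 ± 0.14 (SE, adjusted p = 4.9e-06 and 1.07e-07, edgeR). Replicate 3 of E3 stood apart from the other E3 libraries. All 6 mesenchymal markers were at 1 CPM or more in every line, 2 of 7 epithelial markers (Krt8 and Krt18) were, and the 5 lung epithelial markers, Nkx2-1 among them, had 0 counts in every library. The 7 epithelial markers summed to 449 to 462 CPM in WT, 129 to 204 CPM in E3 and 877 to 932 CPM in E5. Their sum was thus lower in E3 and higher in E5 than in WT, with no overlap. Leukocyte markers summed to 2.37 to 3.36 CPM, nearly all of it Cd68, with Ptprc near 0.

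In E5, 22 of the 43 genes had 0 counts in all 3 libraries, 37 had at most 1 count in each and 41 at most 2. The E5 libraries together held 50 reads on the 43 genes. The lowest count of any of them in a WT or E3 library was 48. In bulk RNA, fewer cells that express a gene and less RNA per cell cannot be told apart, so a low WT level may belong to all cells or to a few. The opposite rules found 0 autosomal genes silent only in E3 and 0 silent only in WT, among 10658 and 10594 genes that reached 1 CPM in every library of the other lines. When up to 10 counts were allowed, 61 genes were silent only in E5, 11 only in E3 and 0 only in WT.

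**Figure D1:**
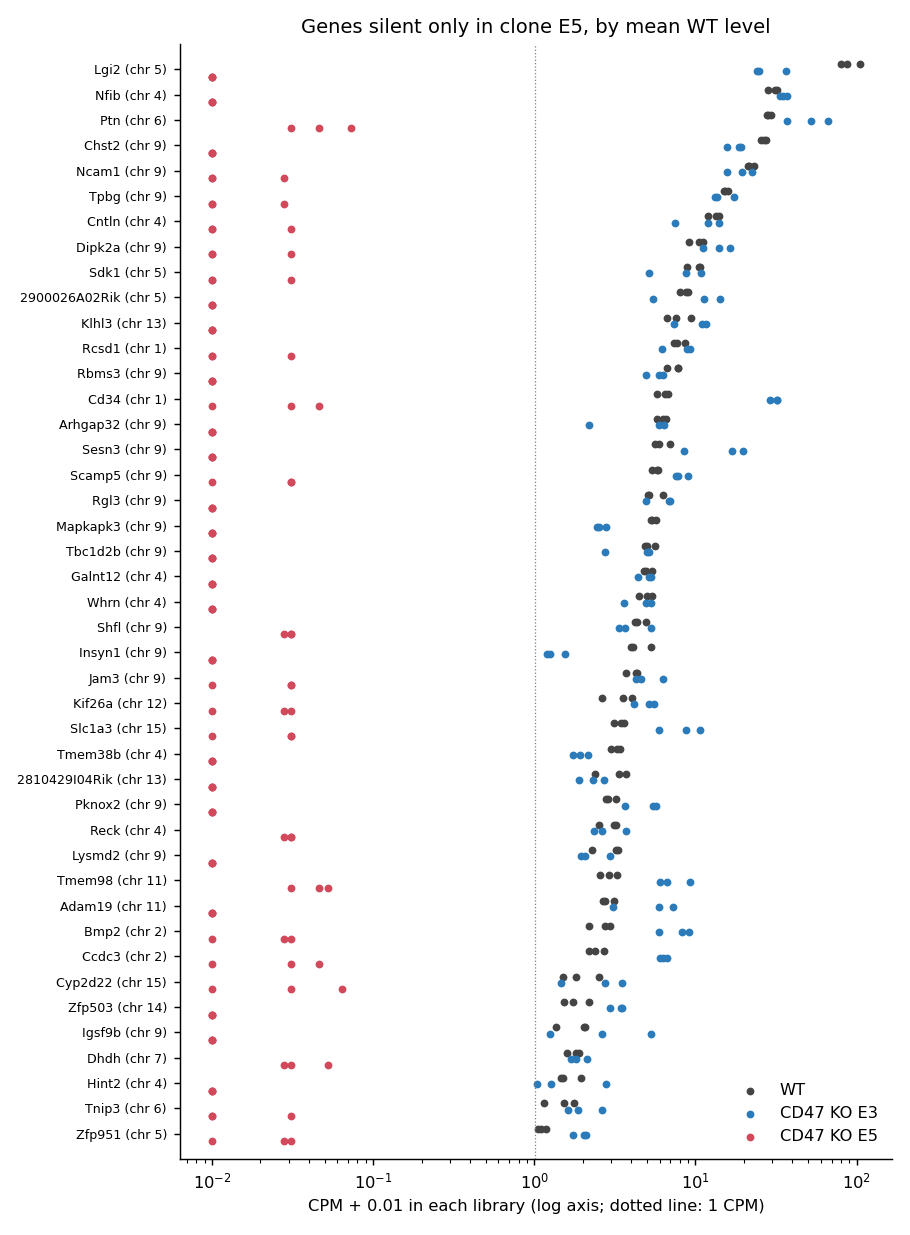
CPM + 0.01 of each gene silent only in E5, on a log axis, in each of the 9 libraries; genes are ordered by mean WT level and points are single libraries of WT (grey), E3 (blue) and E5 (red). Every E5 library lies at 3 counts or fewer, and WT and E3 libraries overlap for 24 of the 43 genes.

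WT levels of the 43 genes were modest. Their mean WT level had a median of 4.94 CPM and ran from 1.10 to 90.9 CPM, with 22 genes under 5 CPM and 9 over 10 CPM, whereas the other expressed genes had a median of 39.6 CPM. Per kilobase of annotated exon, the median WT level was 0.68 CPM against 5.90 CPM in the other expressed genes. The length of exon sequence itself was close, with medians of 7.55 and 6.51 kb. The rule set 1 floor in WT for both sets, and its limit of 3 counts in E5 stands for a smaller fold in a low gene than in a high one.

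Lgi2, which encodes a secreted leucine-rich protein, had the highest WT level of the 43 genes, in CPM and per kilobase of exon. Its WT libraries held 105, 87.2 and 80.4 CPM, its E3 libraries 36.4, 24.2 and 24.8 CPM, and its E5 libraries 0 counts each. WT was the highest and E5 the lowest group, with no overlap, and the mean WT level was at least 4543-fold higher than a floor of 3 counts over the pooled E5 libraries (0.0200 CPM). Per kilobase of exon it reached 13.1 CPM in WT, more than 73.1% of the other expressed genes.

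Nfib, a transcription factor of the nuclear factor I family, held 31.4, 28.3 and 32.1 CPM in WT, 35.1, 36.9 and 33.3 CPM in E3 and 0 counts in each E5 library. All E3 libraries were above all WT libraries, by a small margin, and WT was at least 1530-fold above the E5 floor. Chst2, a Golgi sulfotransferase that adds sulfate to N-acetylglucosamine, held 27.4, 25.5 and 26.5 CPM in WT, 19.1, 18.7 and 15.6 CPM in E3 and 0 counts in E5. Here all E3 libraries were below all WT libraries, and WT was at least 1322-fold above the floor. Ptn, which encodes the heparin-binding growth factor pleiotrophin, held 29.5, 27.9 and 28.1 CPM in WT, 52.3, 36.9 and 66.5 CPM in E3, and 3, 1 and 2 counts in E5. Its E5 level thus rests on 6 reads, and the ratio of WT to pooled E5 was 712, with a 95% Poisson interval of 327 to 1941 that covers counting error only.

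Of the genes for surface and adhesion proteins, Ncam1, the neural cell adhesion molecule, held 21.4, 21.1 and 23.0 CPM in WT and 22.6, 19.3 and 15.8 CPM in E3, and the 3 E5 libraries had 0, 0 and 1 count. Tpbg, which encodes the trophoblast glycoprotein also known as 5T4, held 15.9, 15.3 and 14.9 CPM in WT, 13.7, 17.4 and 13.3 CPM in E3, and 0, 0 and 1 count in E5. Sdk1, an immunoglobulin-domain adhesion protein, held 10.6, 10.7 and 8.83 CPM in WT, 10.8, 8.73 and 5.17 CPM in E3, and 1, 0 and 0 counts in E5. In all 3 of these genes WT and E3 overlapped and E5 stood alone. The junctional adhesion gene Jam3 and the synaptic adhesion gene Igsf9b were likewise lowest in E5, at mean WT levels of 4.11 and 1.81 CPM.

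Cntln, whose product is a centrosomal protein, held 14.0, 13.3 and 11.9 CPM in WT, 14.0, 11.9 and 7.43 CPM in E3, and 0, 1 and 0 counts in E5. Dipk2a, a protein of the divergent kinase family, held 10.5, 9.15 and 11.2 CPM in WT, 16.5, 14.0 and 11.2 CPM in E3, and 0, 1 and 0 counts in E5. Both overlapped between WT and E3. The Riken gene 2900026A02Rik was the tenth by WT level, with a mean of 8.61 CPM in WT, 10.3 CPM in E3 and 0 counts in E5.

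By functional class, assigned from symbol patterns that hold only part of each class, 5 of 456 expressed genes for surface receptors and adhesion molecules were silent in E5, 5 of 636 for intracellular signalling, 3 of 321 for metabolic and detoxifying enzymes, 2 of 90 for secreted ligands and antagonists and 2 of 64 for proteases and their inhibitors. The shares were 1.10%, 0.786%, 0.935%, 2.22% and 3.12%, beside 0.401% over all expressed autosomal genes, and rest on few genes each. Zinc finger genes of the Zfp type gave 2 of 326 (Zfp951 and Zfp503), other transcription regulators 1 of 239 (Nfib), channels and transporters 1 of 303 (Slc1a3) and cytoskeletal genes 1 of 135 (Kif26a). The first class held Cd34, Jam3, Ncam1, Tmem98 and Tmem38b, of which Tmem38b is known as a cation channel of the endoplasmic reticulum and not as a surface receptor. The patterns found none among 70 matrix genes, 94 interferon-inducible and immune genes, 17 imprinted genes or 28 germline genes, although Shfl, known as an interferon-induced gene, is silent in E5 and was missed by the pattern of that class. The patterns placed 2 in the class of predicted or Riken names and 19 in no class. Of the 43, 42 were annotated as protein-coding and 1, 2810429I04Rik, as a long noncoding RNA.

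Among the signalling genes, Sesn3 encodes a stress-inducible sestrin, Mapkapk3 a kinase downstream of p38, Arhgap32 a GTPase-activating protein, Rgl3 a member of a family of Ral exchange factors and Tbc1d2b a Rab GTPase-activating protein. All 5 lie on chromosome 9 and had 0 counts in every E5 library, at mean WT levels of 6.16, 5.47, 6.20, 5.49 and 5.17 CPM. The enzymes were Chst2, the mucin-type glycosyltransferase Galnt12 (5.03 CPM in WT) and the cytochrome P450 gene Cyp2d22 (1.94 CPM in WT). The protease class held Reck, a membrane-anchored inhibitor of matrix metalloproteinases, and Adam19, a membrane-bound metalloprotease, at 2.94 and 2.85 CPM in WT. The ligands were Ptn and Bmp2, a bone morphogenetic protein.

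Outside the classes, Rbms3 encodes an RNA-binding protein, Klhl3 an adaptor of a cullin ubiquitin ligase, Rcsd1 a protein that binds the actin-capping protein CapZ, Scamp5 a secretory carrier membrane protein and Whrn a PDZ scaffold. Their mean WT levels were 7.40, 7.90, 7.88, 5.68 and 4.94 CPM. Shfl, an interferon-induced antiviral factor, held 4.48 CPM in WT and 1 count in each E5 library. Pknox2, a homeobox factor, held 2.95 CPM in WT and 0 counts in E5. Hint2, a mitochondrial hydrolase, Tnip3, which binds the ubiquitin-editing protein A20, Dhdh, a dihydrodiol dehydrogenase, and Lysmd2 were among the weaker ones, at 1.63, 1.47, 1.75 and 2.92 CPM in WT.

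Near the limits of the rule lay the following genes. Just inside the count limit were Ptn and Cyp2d22, with a highest E5 count of 3, and Tmem98, with 2. Just outside were Cadm1 on chromosome 9, an adhesion gene at 62.3 CPM in WT, Ggt1 and Adgre5, each with a highest E5 count of 4. Just inside the CPM floor were Hint2, Zfp951 and Tnip3, whose lowest WT or E3 library held 1.03, 1.05 and 1.14 CPM. Just outside it were Tmem51, Hemk1 and Zfp37 at 0.967, 0.941 and 0.904 CPM, all with 0 counts in E5 and all on chromosome 4 or 9.

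By position, which was described and not tested, chromosome 9 held 17 of them, 2.79% of its 609 expressed genes, and chromosome 4 held 7, 1.08% of its 648 expressed genes. The other autosomes together held 19 of 9472, or 0.201%. Chromosomes 4 and 9 thus had 55.8% of the silent genes and 11.7% of the expressed ones. On 7 autosomes no expressed gene was silent in E5. For comparison, 14 of 337 expressed genes on the X chromosome met the same thresholds, 4.15%.

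**Figure D2:**
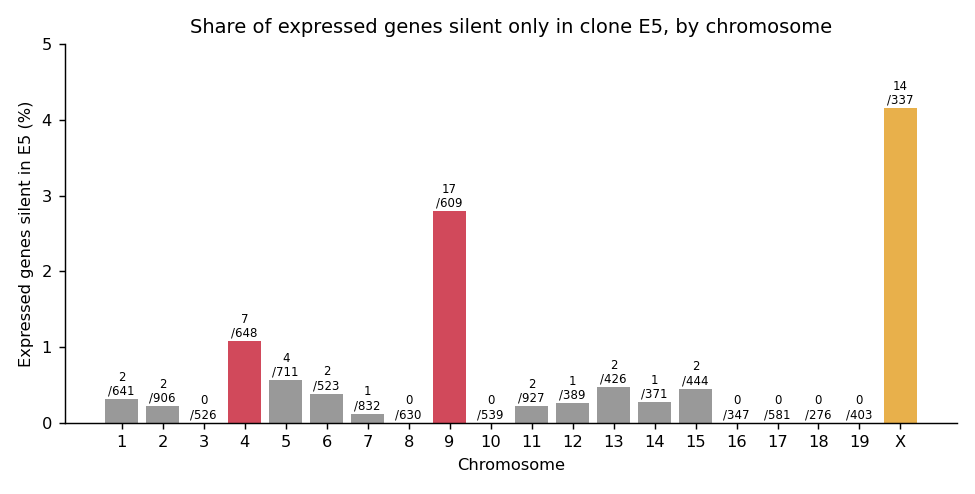
Percent of expressed genes (at least 1 CPM in each WT and E3 library) with at most 3 counts in each E5 library, by chromosome; numbers over the bars are silent genes over expressed genes. Chromosome 9 (2.79%) and chromosome 4 (1.08%), in red, are the highest autosomes, and the X chromosome (4.15%), in yellow, is outside the autosomal rule.

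On chromosome 4, all 7 genes lay in 41.4 Mb, from Hint2 at 43654227 to Cntln, which ends at 85050158 (GRCm39), in the order Hint2, Reck, Galnt12, Tmem38b, Whrn, Nfib and Cntln. This stretch holds 98 of the chromosome's 648 expressed genes, so 7.14% of them were silent. Its ends were set by the first and last silent genes, so none could lie outside it. On chromosome 9, the 17 genes were strung over 103.5 Mb, from Sesn3 at 14186363 to Rbms3, which ends at 117701749, with a median gap of 4933 kb. On chromosome 9, 1 of 16 gaps between successive silent genes was within 500 kb, and over all chromosomes 2 of 31 were.

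The first close pair was Hint2 and Reck on chromosome 4, 219 kb apart. Hint2 (chr4:43654227-43656466, minus strand) held 1.93, 1.51 and 1.45 CPM in WT, 1.25, 1.03 and 2.78 CPM in E3 and 0 counts in E5. Reck (chr4:43875530-43944806, plus strand) held 3.10, 3.20 and 2.52 CPM in WT, 3.70, 2.61 and 2.33 CPM in E3 and 1 count in each E5 library. The genes between them were not all silent: of 2 that were tested, Gm12481 held 0.557 CPM in WT and 0.574 CPM in E5, and Tmem8b fell from 1.39 to 0.598 CPM. The second pair was Jam3 (chr9:27008680-27066689, minus strand) and Igsf9b (chr9:27210500-27268842, plus strand), 144 kb apart and transcribed away from each other, with 2 listed genes and 0 tested genes wholly between them. Jam3 held 4.29, 4.31 and 3.72 CPM in WT, 4.58, 4.26 and 6.28 CPM in E3 and 1, 1 and 0 counts in E5. Igsf9b held 1.35, 2.05 and 2.02 CPM in WT, 2.61, 5.28 and 1.24 CPM in E3 and 0 counts in E5.

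The neighbours of the silent genes, which the rule did not use, were then compared between E5 and WT with edgeR's quasi-likelihood test and p-values adjusted over all 14593 genes tested (Benjamini-Hochberg), calling a gene where the adjusted p was under 0.05 and the log2 fold change was beyond 1 in size. The nearest tested gene on each side gave 84 genes at a median distance of 97.2 kb. Of these, 19 (22.6%) were lower and 2 (2.38%) higher in E5, beside 5.01% lower and 2.73% higher among the 14077 tested autosomal genes that are not in the list. Some of the 19, such as Npr2, Cish and Epor, were under 1 CPM in WT and at 0 CPM in E5. Such genes pass the filter on low counts only through WT or E3, so a fall in E5 was nearly the only call open to them. The neighbours and the 14077 genes were not matched for level. The median log2 fold change of the neighbours was -0.32, and that of the 14077 genes was -0.006. Among the 54 neighbours that were themselves expressed genes, 7 (13.0%) were lower and 1 higher, beside 2.48% and 1.5% of all expressed autosomal genes outside the list. On chromosomes 4 and 9, 6 of 29 such neighbours (20.7%) were lower. Of the expressed genes outside the list, 2.18% on chromosome 4 and 3.89% on chromosome 9 were lower. Within the stretch of chromosome 4 that held its silent genes, the share was 9.89%. Elsewhere 1 of 25 such neighbours (4.0%) was lower, beside 2.41% of the expressed genes outside the list there. Leaving out 4 neighbours that overlap a silent gene left 15 of 80 lower. The counter and its strand setting are not given in the sources used here, so reads of overlapping genes cannot be assigned with certainty, and 10 of the 43 genes are tagged as overlapping another locus.

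Next to Reck, Glipr2, a Golgi-associated protein gene 12.6 kb beyond it, fell from 14.5 CPM in WT to 0.177 CPM in E5, with 20.8 CPM in E3. Its log2 fold change was -6.33 ± 0.21 (SE, n = 3 per line, adjusted p = 2.59e-08, edgeR). On the other side, Npr2, a natriuretic peptide receptor gene 2.98 kb before Hint2, held 0.388 CPM in WT and 0 in E5 and was called lower (adjusted p = 0.00624, edgeR). Beside the other pair, Gm48796, which overlaps Jam3 and is also the nearest tested gene before Igsf9b, held 0.288 CPM in WT and 0.0271 CPM in E5 and was called lower, at -3.29 ± 0.79 (SE, adjusted p = 0.0141, edgeR). Ncapd3, a condensin subunit gene 2.07 kb from Jam3, held 77.9 CPM in WT and 77.4 CPM in E5, with a log2 fold change of 0.02 ± 0.19 (SE). Snx19, the nearest tested gene after Igsf9b but 3070 kb from it, did not pass the test, at 61.8 CPM in WT and 48.7 CPM in E5.

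The other expressed neighbours that were lower, named after their values were seen, were Anks6 beside Galnt12, Akna beside Whrn, Slc9a9 between Dipk2a and Chst2, Angptl6 overlapping Shfl, Tmem8b before Reck on chromosome 4, and Myo1d before Tmem98 on chromosome 11. Their log2 fold changes in E5 were -3.96, -1.89, -1.59, -2.32, -1.18 and -3.10. Akna and Angptl6 were also called lower in E3, at -1.36 and -3.52, so the change there was not particular to E5. Ranbp3l, beside Slc1a3, was the 1 expressed neighbour called higher, at 1.24, and without replicate 1 of E5 it was 0.99 and not called.

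Expressed genes of chromosomes 4 and 9 outside the list were also examined as a whole. Within the 41.4 Mb of chromosome 4, the 91 other expressed genes had a median log2 fold change of -0.42 in E5 against WT, and 9 (9.89%) were called lower. The 550 outside it had a median of -0.07 and 0.909% lower. The ends of the stretch were set by its silent genes, so this split was not made independently of them. In E3 against WT the genes within the stretch had a median of -0.14, with 5.49% lower, and those outside it a median of -0.06, with 2.0% lower, so the share of lower genes was also larger within the stretch in E3, and the difference between the clones there was not tested. On chromosome 9, the 592 others had a median of -0.19, with 3.89% lower and 0.338% higher. The 9453 on the remaining autosomes had a median of 0.02 and 2.41% lower, and the medians of single autosomes ran from -0.19 on chromosome 9 to 0.25 on chromosome 13. The part of such regional shifts in the silent genes was not tested.

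**Figure D3:**
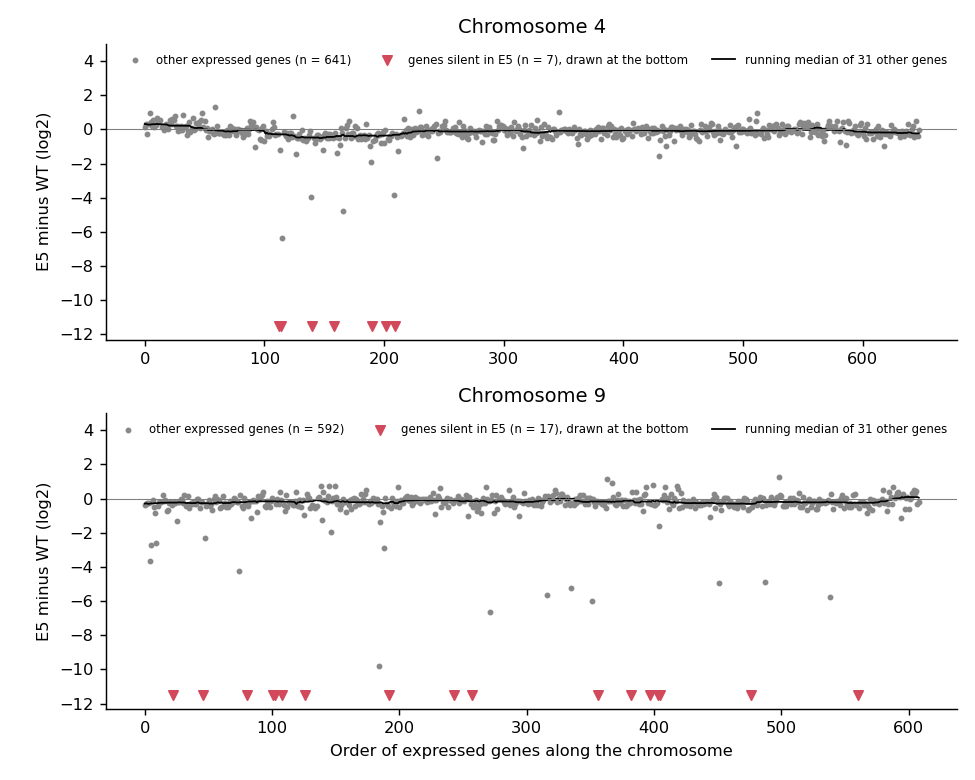
Log2 fold change of E5 against WT for each expressed gene, in the order of the genes along chromosome 4 (top) and chromosome 9 (bottom). Grey points are genes outside the list, the black line is their running median over 31 genes, and red triangles mark the genes silent in E5, drawn at the bottom of the axis and not at a value. On chromosome 4 the triangles sit in 1 stretch where the running median is below 0, and on chromosome 9 they are spread along its length.

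Genes near to silence were found beside these. In E5, 34 further expressed autosomal genes had every library at under 10% of the lowest WT library, 9 of them on chromosome 9 (1.48% of its expressed genes), 5 on chromosome 5 (0.703%) and 3 on chromosome 4 (0.463%), beside 0.317% over all autosomes. Named after their values were seen, those on chromosome 9 included Cadm1, with 62.3 CPM in WT and 0.0664 CPM in E5, Cgnl1, a junction protein gene, with 60.6 and 1.55 CPM, and Myo5c, an unconventional myosin gene, with 56.1 and 0.841 CPM. On chromosome 4 they were Glipr2, Ptpn3 and Bnc2.

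Clone E3 against WT gives a comparison that the rule did not use, beyond its floor. Of the 43 genes, 9 were called, 6 higher (14.0%) and 3 lower (6.98%) in E3, in the same edgeR fit and with the same thresholds, and without replicate 3 of E3 11 were called, 8 higher and 3 lower. Of all 14593 genes tested, 9.82% were called, 5.43% higher and 4.39% lower in E3, and of the expressed autosomal genes outside the list, 5.03% were called, 2.54% higher and 2.5% lower. All E3 libraries were above all WT libraries in 13 genes and below them in 6, beside 24.1% higher and 23.0% lower among the other expressed genes. The median log2 fold change of the 43 was 0.15, and that of the other expressed genes was -0.01. These shares were not matched for level, since the median WT level was 4.94 CPM in the 43 and 39.6 CPM in the others. The floor of 1 CPM in E3 can remove falls but not rises, and does so more readily among genes of low WT level.

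The largest rise was that of Cd34, a sialomucin of stem and endothelial cells. It held 5.74, 6.47 and 6.79 CPM in WT and 32.3, 29.1 and 32.0 CPM in E3, whereas E5 had 0, 1 and 2 counts. The 3 lines did not overlap, and the log2 fold change of E3 against WT was 2.26 ± 0.14 (SE, adjusted p = 4.77e-06, edgeR). The 4 endothelial markers examined summed to at most 0.150 CPM in any library. The 5 fibroblast markers summed to 31.1 to 39.7 CPM in WT, 76.2 to 105 CPM in E3 and 36.8 to 38.1 CPM in E5, and were thus also highest in E3, with Thy1 at 0 in every line and 4, 3 and 2 of them at 1 CPM or more in WT, E3 and E5. Pdgfra, Dpt and Pdgfrb made up the rise in that sum. Their means were 25.9, 5.26 and 1.32 CPM in WT and 51.9, 31.6 and 5.68 CPM in E3. Pi16 went the other way, from 1.64 CPM in WT to 0.385 CPM in E3. In E5, Pdgfra, Dpt, Pdgfrb and Pi16 had means of 17.3, 19.1, 0.305 and 0.684 CPM. Dpt was thus above its WT mean in both clones, and Pdgfra, Pdgfrb and Pi16 were below theirs in E5. The part of the fibroblast markers in the rise of Cd34 or of the other genes higher in E3 was not tested.

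Bmp2 held 2.74, 2.93 and 2.19 CPM in WT and 9.06, 5.90 and 8.29 CPM in E3, a log2 fold change of 1.53 ± 0.20. Ccdc3, which encodes a secreted coiled-coil protein, held 2.36, 2.18 and 2.69 CPM in WT and 6.70, 6.03 and 6.30 CPM in E3, a log2 fold change of 1.36 ± 0.18. In both, every E3 library was above every WT library and the E5 libraries had at most 2 counts. Tmem98, a membrane protein gene, and Slc1a3, a glial glutamate transporter gene, rose by 1.30 ± 0.18 and 1.29 ± 0.22 on the log2 scale. Sesn3 held 6.95, 5.59 and 5.93 CPM in WT and 19.6, 16.8 and 8.45 CPM in E3, a log2 fold change of 1.25 ± 0.28. Replicate 3 of E3 was the lowest of the E3 libraries, and without WT replicate 2 the call for Sesn3 was lost (adjusted p = 0.0508, edgeR).

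The 3 genes that fell in E3 were Insyn1, an inhibitory synapse factor, Lgi2 and Mapkapk3. Insyn1 held 5.26, 4.0 and 4.08 CPM in WT and 1.54, 1.24 and 1.20 CPM in E3, a log2 fold change of -1.77 ± 0.20. Lgi2 changed by -1.71 ± 0.18, from the highest WT level of all 43 genes. Mapkapk3 held 5.36, 5.72 and 5.32 CPM in WT and 2.44, 2.76 and 2.51 CPM in E3, a log2 fold change of -1.12 ± 0.15. In each of these genes the 3 lines formed 3 separate groups, with E3 between WT and E5. A further 8 genes had an adjusted p under 0.05 by edgeR with an absolute log2 fold change under 1, among them Ptn at 0.83 and Chst2 at -0.60.

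Grouped by position, the genes had different values in E3. Of the 19 silent genes on autosomes other than 4 and 9, 16 had a positive log2 fold change in E3, with a median of 0.51, 5 called higher and 1 called lower. The 17 on chromosome 9 had a median of -0.16, with 1 higher and 2 lower, and the 7 on chromosome 4 had a median of -0.06 and none called. The 14 silent genes on the X chromosome were all higher in E3, with a median of 1.92, and 11 of them were called. Of the 323 other expressed genes on X, 150 had a positive log2 fold change in E3. Their median was -0.04, with 4.33% called higher and 1.86% lower. Of the 10686 expressed autosomal genes outside the list, 5212 were positive, with 2.54% called higher and 2.5% lower. The rule's floor of 1 CPM in every E3 library leaves out genes that fell far in E3, most of all those near 1 CPM in WT. The silent X genes had a median WT level of 1.99 CPM, so their shared direction was in part set by the rule. The difference between these groups of genes was not tested.

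**Figure D4:**
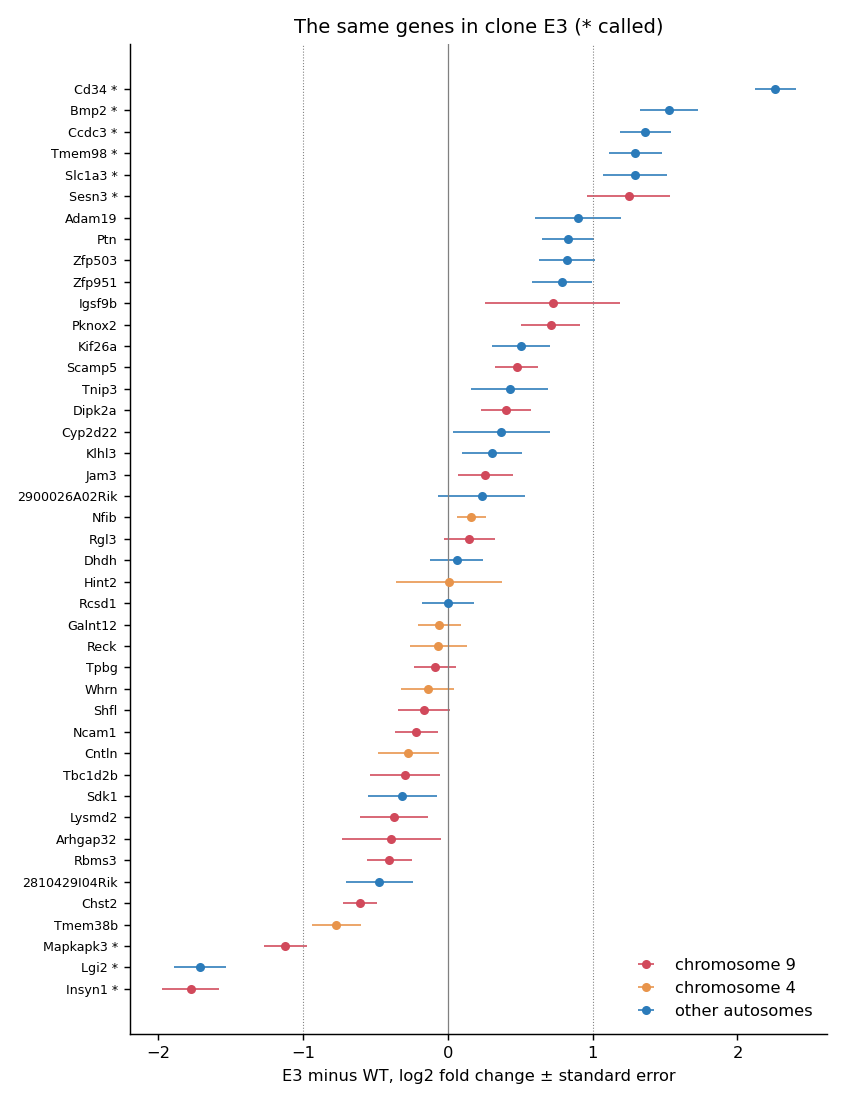
Log2 fold change of E3 against WT with its standard error for each gene silent only in E5, coloured by chromosome; dotted lines mark a log2 fold change of -1 and 1, and stars mark called genes. Cd34 is the highest at 2.26 and Insyn1 the lowest at -1.77, and genes of autosomes other than 4 and 9 (blue) lie mostly above 0.

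Promoter sequence was not used by the rule. The measure was the number of CG pairs over that expected from C and G in the 300 bases before the canonical start site. Its median was 0.61 in the 43 genes and 0.67 in 10678 other expressed genes. On chromosomes 4 and 9, 17 of 24 silent genes (70.8%) had a ratio of at least 0.6, beside 60.3% of the other expressed genes there. On the remaining autosomes 5 of 19 (26.3%) did, beside 59.6%. The median there was 0.38 and 11 of 19 (57.9%) were under 0.4, beside 17.9% of all expressed autosomal genes outside the list. Ptn (0.13), Tmem98 (0.13), Rcsd1 (0.14), Tnip3 (0.16) and Slc1a3 (0.20) had few CG pairs, whereas Sdk1 (1.01), Bmp2 (1.00) and 2900026A02Rik (0.89) had many. The TATAAA motif on either strand was found in 2 of 43 windows (4.65%), beside 8.75% of the others. These counts describe the windows and are not a test. The start sites used in these cells were not measured, and a canonical start site can lie away from the gene as deposited. For Arhgap32 the window begins near chr9:31943300, whereas the deposited start of the gene is 32027432.

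**Figure D5:**
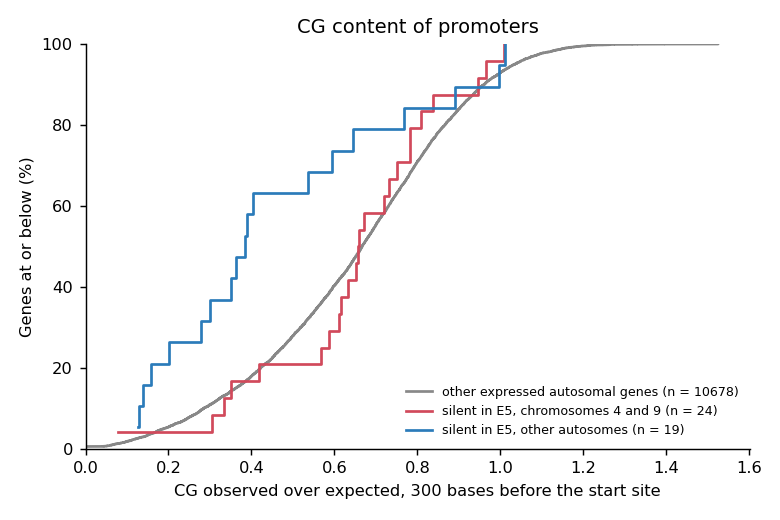
Cumulative percent of genes (vertical axis) against the ratio of observed to expected CG pairs in the 300 bases before the start site (horizontal axis). The curve of silent genes on chromosomes 4 and 9 (red, n = 24) runs near that of other expressed autosomal genes (grey, n = 10678), and that of silent genes on other autosomes (blue, n = 19) lies to its left, with a median of 0.38.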

How the data were processed

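RNA-seq counts of 9 libraries of LLC cells (3 each of WT, clone E3 and clone E5) were used, with lines and replicates taken from the labels. Per the submitters' processing notes and the methods, the authors used FastQC and Trimmomatic on the reads and STAR for alignment to GRCm39. The deposited values are unnormalized counts of reads on each gene. The counting tool, strand setting and annotation release are not given in the sources used here. The 43 genes and all lists were chosen with earlier results of these data known. CPM are of each library's total count. All 3 lines were fitted together with edgeR (version 4.0.16, R 4.3.3) with quasi-likelihood tests and TMM scaling, after filterByExpr (minimum count 10, minimum total 15), which left 14593 genes. Calls needed an adjusted p (Benjamini-Hochberg) under 0.05 and a log2 fold change beyond 1 in size. Standard errors were derived from the log2 fold change and the F statistic. On counts simulated for E3 against WT over 14342 genes, 181 of 200 changed genes were recovered, with 2 false calls. The coefficient of variation between replicates was 14.8%.

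Coordinates are those of the deposited table (GRCm39). All 43 gene identifiers were found in GENCODE M39, whose exons and canonical start sites were used, and 8 had the same coordinates there as in the deposited table. Named genes were the 10 highest in WT, up to 3 per class, the close pairs and their neighbours, the 3 most positive and negative calls in E3, and the genes at the edges of the rule, and others were chosen after their values were seen. Intervals and floors cover counting error only. Alternatives were DESeq2 (version 1.42.0), its size factors, no filter on low counts, fits of 2 lines at a time, a replicate block, other limits of the rule and each library left out in turn. The stretch before the start site of Nfib is not reported here.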

Additional observations from a re-analysis of the deposited data

Results flagged for a closer look

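Cd47 differed between the KO clones: its level was lower in E5 than in E3, with a log2 fold change of -1.36 ± 0.13 (SE, adjusted p = 2.76e-05 edgeR, Benjamini-Hochberg), and every E5 library was below every E3 library.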

How the results depend on the processing

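The number of genes silent only in E5 moved with the limits of the rule: it was 22 when 0 counts were required in E5 and 71 when 0.5 CPM was enough in WT and E3, of which 24 lay on chromosome 9 and 13 on chromosome 4. It was 61 at up to 10 counts and 32 at 2 CPM, and 43 to 47 when each library was left out in turn. Of the 43 genes, 8 to 11 were called in E3 against WT when 1 library was left out, the most without replicate 3 of E3, and 9 under DESeq2. Of the 84 neighbours, 19 to 22 were called in E5 when 1 library was left out and 22 under DESeq2, and with only the 2 groups compared 18 of 77 tested. The log2 fold change of Cd47 ran from -2.12 to -1.92 in E3 and from -3.44 to -3.32 in E5 over libraries left out. Same-numbered libraries of different lines had correlations of -0.17 to 0.05 between their deviations, and differently numbered ones -0.16 to 0.18. No pairing by replicate number was thus seen, which does not settle how the cultures were handled. With the replicate number as a block, 9 of the 43 genes and 21 neighbours were called, and Cd47 changed by -2.04 and -3.39. The rule did not tell a level of at most 3 counts per E5 library apart from 0, and genes under 1 CPM in a WT or E3 library were outside it.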
